A study of Homo sapiens with 6 samples.

Results

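The genes described here encode the initiation and elongation factors of protein synthesis. They are the rows of the gene table whose names start with EIF or EEF, without the EIF2AK kinases, and they number 68 of the 20532 genes. They were grouped into 11 complexes or functional sets. The data are mRNA-enriched, paired-end RNA-seq libraries of ACHN, an established human renal carcinoma cell line that the labels call clear cell renal cell carcinoma. There were 3 libraries from cells with a lentiviral control hairpin (shCtrl 1, 2 and 3) and 3 from cells with a lentiviral hairpin against DNAJC2 (shDNAJC2 1, 2 and 3). Cells of both groups were stably transduced, the 3 libraries of a group are named as biological replicates, and hairpin sequences and the number of clones are not given in the sources used here. DNAJC2 encodes a co-chaperone that sits on the ribosome near the exit of the peptide tunnel. The comparison asks which mRNAs differ in level between cells with and without the DNAJC2 hairpin.

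As background, initiation begins when eIF2, carrying GTP, brings the initiator tRNA to the small ribosomal subunit, with eIF1, eIF1A, eIF3 and eIF5 bound there as well. The cap-binding complex eIF4F recruits the mRNA, eIF1 and eIF5 act in opposite senses on the choice of start codon, and eIF5B joins the large subunit. Elongation then runs on eEF1A, which delivers aminoacyl-tRNA, eEF2, which moves the ribosome along, and eIF5A, which relieves stalls. Several of these mRNAs start with a run of pyrimidines that places their translation under mTOR, and phosphorylated eIF2 blocks its own exchange factor eIF2B in the integrated stress response, which raises translation of the transcription factor ATF4.

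Library totals ranged from 17491462 to 25760291 counts, and levels are given as CPM, read counts scaled to library size with TMM factors. DNAJC2 itself was at 76.7, 69.8 and 86.5 CPM across shCtrl 1 to 3, against 51.2, 50.4 and 38.5 CPM across shDNAJC2 1 to 3. All 3 knockdown libraries were below all 3 controls, with a log2 fold change of −0.74 (SE 0.15) and an adjusted p of 0.429 in edgeR's quasi-likelihood test, or 0.0364 in DESeq2. The library labelled shCtrl 3 stood apart from the other controls. It differed from shCtrl 1 by over 2-fold in 2080 of 13988 genes tested and from shCtrl 2 in 1938, whereas shCtrl 1 and 2 differed from each other in 48. The summed level of 14 targets of ATF4 set the same libraries apart, at 934, 937 and 8400 CPM across shCtrl 1 to 3, against 7228, 7534 and 4865 CPM across shDNAJC2 1 to 3. The 6 fibroblast markers summed to 3973, 3977 and 1116 CPM across shCtrl 1 to 3, against 1025, 1057 and 1676 CPM across shDNAJC2 1 to 3. COL1A1 and COL1A2 made up most of that sum. COL1A1 was at 2795, 2784 and 695 CPM across shCtrl 1 to 3, against 572, 623 and 1066 CPM across shDNAJC2 1 to 3. PDGFRB was at 125, 128 and 95.9 CPM across shCtrl 1 to 3, against 76.6, 82.6 and 91.9 CPM across shDNAJC2 1 to 3. All its knockdown libraries were below all controls (log2 fold change −0.47, adjusted p 0.429 in edgeR). PDGFRA was between 128 and 186 CPM, highest in shDNAJC2 3, LUM between 14.1 and 24.5 CPM and DCN between 18.9 and 27.3 CPM. None of the 6 was at 0. The part of the ATF4 targets or of the collagen genes in the results below was not tested, and in bulk RNA fewer cells of a type and less RNA per cell cannot be told apart. Summed markers of immune cells were between 72.0 and 94.5 CPM, with 5 of 7 under 1 CPM in every library and CD3E at 0. Almost all of that sum was CD68, at 71.0 to 92.2 CPM. The 4 endothelial markers summed to between 1.15 and 6.24 CPM, with CDH5 at 0. Of the kidney markers, PAX8 was between 2.82 and 4.64 CPM and PAX2 had no count in 5 of the 6 libraries. Results are therefore given over all 6 libraries and, beside them, without shCtrl 3.

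Translation factor mRNAs were abundant and made up 2.19%, 2.25% and 2.89% of all counts across shCtrl 1 to 3, against 2.89%, 2.89% and 2.42% across shDNAJC2 1 to 3. The share was 2.45% ± 0.387 (SD, n = 3) in the controls and 2.74% ± 0.273 (SD, n = 3) in the knockdown libraries, a difference within the spread of the controls. The low pair were shCtrl 1 and 2, and shCtrl 3 matched shDNAJC2 1 and 2. EEF1A1 alone held between 0.704% and 1.04% of the counts of a library. Of the 68 genes, 66 passed the filter on low counts. EIF4E1B, a germline paralog of the cap-binding protein, had no count in any library, which allows up to 0.115 to 0.179 CPM (3 counts), and EIF2S3B, a retrocopy of EIF2S3, was under 1 CPM in all 6. Between them EIF4E1B and EIF2S3B are the members that were not tested.

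Over all 6 libraries none of the 66 factors passed an adjusted p of 0.05 in edgeR's quasi-likelihood test, as was true of all genes (percent called 0). DESeq2 called none of them either. At an unadjusted p under 0.05, 6 factors (9.09%) were higher and none lower, against 4% of all 13988 genes higher and 7.33% lower. The 6 were EIF2S2, EIF2S3, EIF2A, EIF1AX, EIF5A2 and EEF1E1. The median log2 fold change was 0.14 over the 66 factors, with 47 positive and 19 negative, beside −0.02 over all genes tested. Fold changes ran from −0.30 (EEF1A2, or −0.03 with the GC trend of each library removed) to 0.70 (EIF2S2), and the 95% interval lay inside 2-fold either way for 58 of the 66 (87.9%, against 74% of all genes). For 10 factors the control and knockdown libraries did not overlap, 6 of them higher and 4 lower. That is 15.2% of the factors, close to the 15.8% of all genes that did not overlap, while 7.33% of all genes were higher without overlap and 8.42% lower. The split depended on the scaling. It was 4 higher and 4 lower with DESeq2's size factors (7.7% and 8.02% of all genes) and 9 and 2 with upper-quartile factors (8.71% and 7.71%). With total counts it was 8 and 1 (8.89% and 7.18% of all genes). In TPM, a scale that divides by transcript length, it was 8 and 3 (8.31% and 7.46%).

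**Figure D1:**
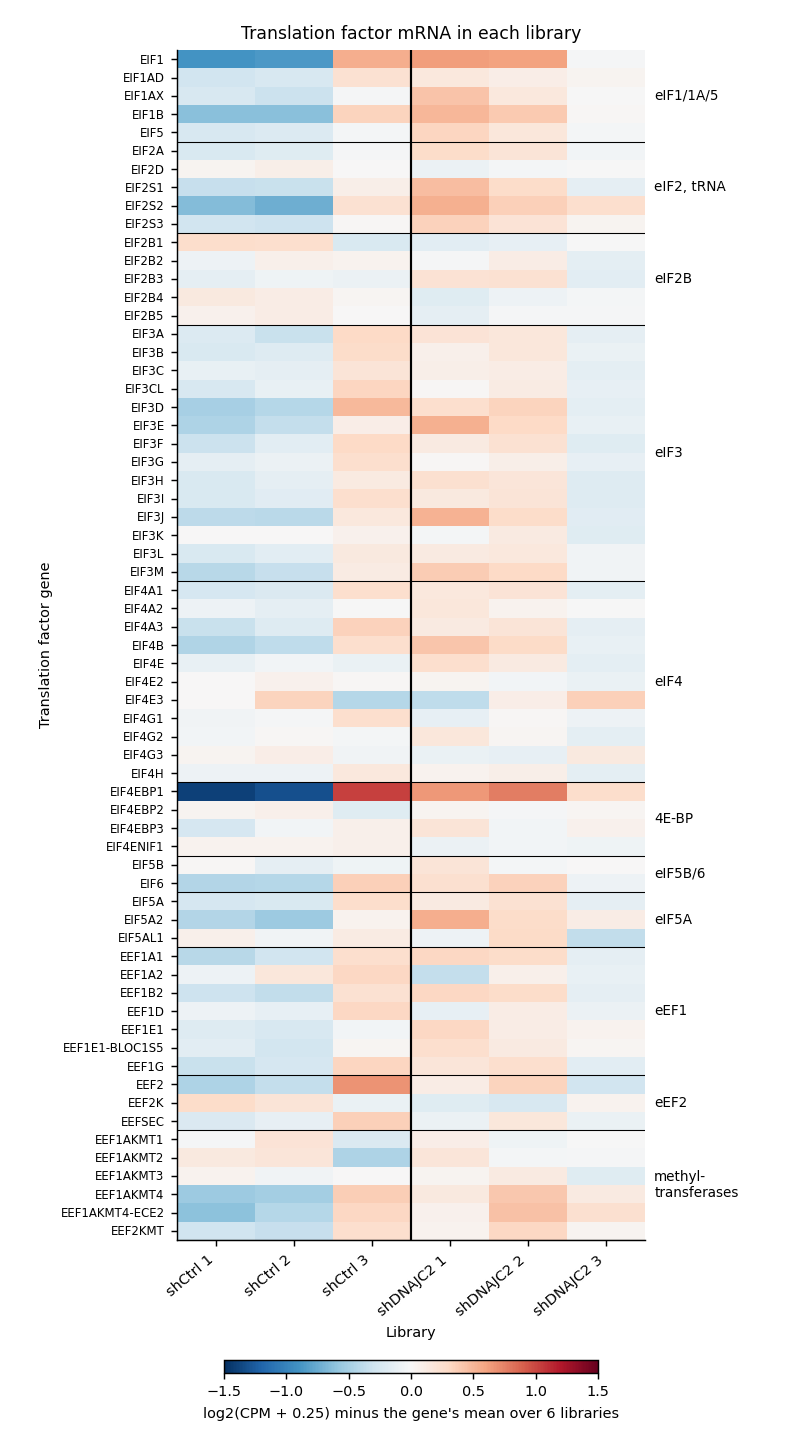
Heat map of 65 translation factor genes (rows, grouped by complex) in the 6 libraries (columns). Colour gives log2(CPM + 0.25) minus the gene's mean over the libraries, red for above and blue for below it; the columns shCtrl 1 and 2 are blue in most rows of eIF3 and eEF1, shCtrl 3 resembles shDNAJC2 1 and 2, and the rows of eIF2B and many of eIF4 are pale.

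Without shCtrl 3, 23 of the 66 factors (34.8%) rose at an adjusted p under 0.05 in edgeR's quasi-likelihood test, beside 17.8% of all 14201 genes tested, and 1 factor (1.52%), EIF2B1, fell, beside 17% of all genes. The median log2 fold change of the factors was then 0.27, and that of all genes −0.01. Among the 23 that rose are the read-through genes EEF1E1-BLOC1S5 and EEF1AKMT4-ECE2. They share exonic bases with EEF1E1 and EEF1AKMT4, which are counted as well, and are not independent measurements. By set, the rises took 5 of the 6 genes in the start codon recognition set, which includes EIF1AD, an EIF1A-like gene. They also took 4 of the 5 tested carriers of initiator tRNA, 4 of 14 in eIF3, 1 of 11 in the eIF4F set and none of 5 in eIF2B. The number that rose also moved with single knockdown libraries: it was 12 without shDNAJC2 1 as well, 8 without shDNAJC2 2 and 42 without shDNAJC2 3. The shares of all genes that rose with a knockdown library left out are not given here, so these 3 counts have no background beside them. The controls in this comparison are the pair of libraries from which shCtrl 3 differs, so the rise and the distance of shCtrl 3 are measured against the same libraries. In 51 of the 66 factors (77.3%) shCtrl 3 lay nearer to the knockdown mean than to the mean of shCtrl 1 and 2, much as in all genes (74.6%). It was the highest of the 6 libraries for 22 factors (33.3%, against 22.8% of all genes). Among the knockdown libraries, shDNAJC2 3 was nearest to shCtrl 1 and 2 for 50 factors (75.8%, against 63.5%).

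**Figure D2:**
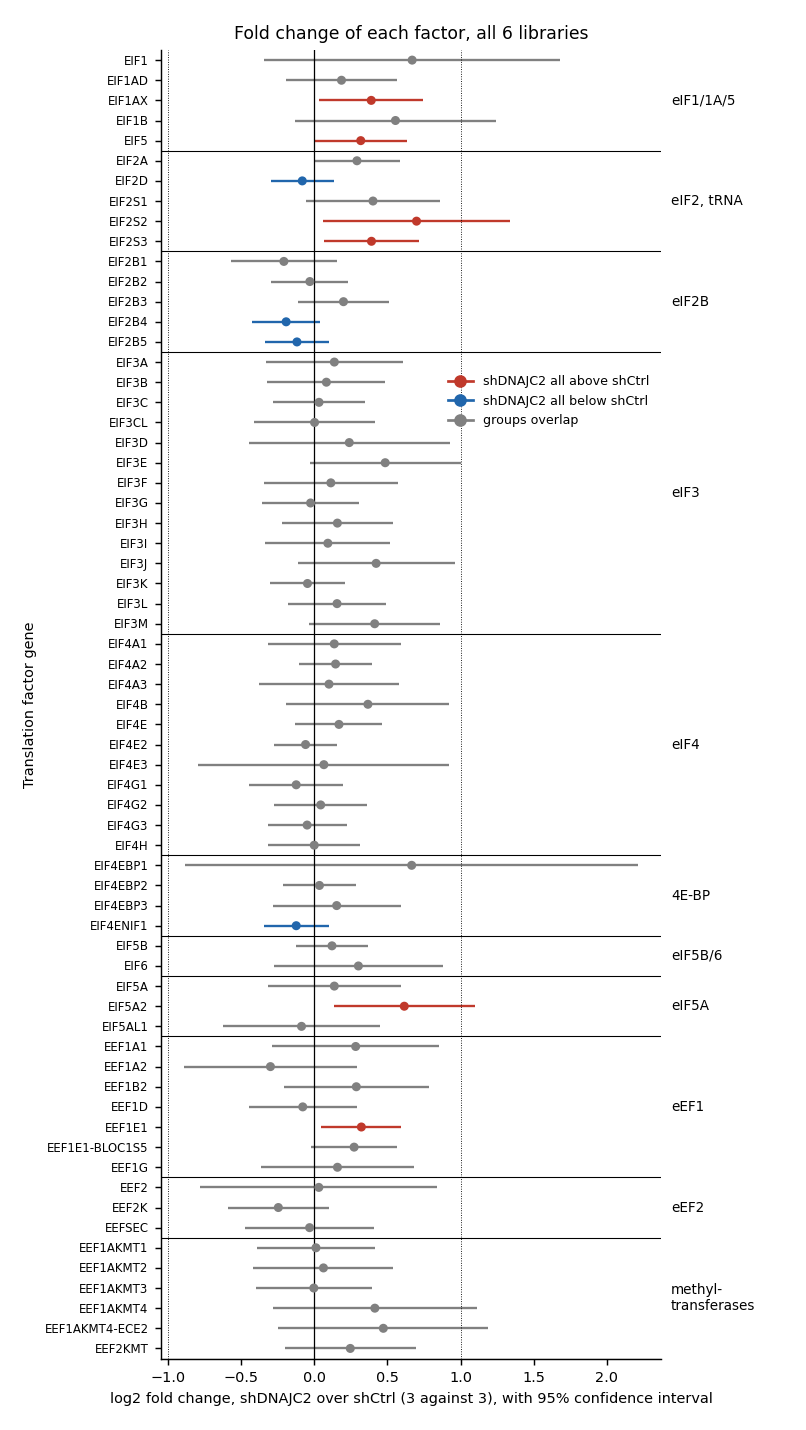
Log2 fold change of 65 tested factors, shDNAJC2 over shCtrl with 3 libraries each (points), with 95% confidence intervals (lines); dotted lines mark a log2 fold change of 1 either way. Red marks the genes whose knockdown libraries were all above the controls and blue those all below; most points lie to the right of 0 and most intervals cross it.

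The carriers of initiator tRNA had a median log2 fold change of 0.39 over 5 tested genes, and of 0.51 without shCtrl 3. EIF2S2 encodes the beta subunit of eIF2, the part that contacts eIF5 and eIF2B, and lies on chromosome 20 (GRCh38, 34088298 to 34112332, minus strand). It was at 169, 160 and 312 CPM across shCtrl 1 to 3, against 384, 340 and 317 CPM across shDNAJC2 1 to 3. All knockdown libraries were above all controls, although shCtrl 3 and shDNAJC2 3 differed by few CPM. The log2 fold change was 0.70 (SE 0.27), with an unadjusted p of 0.0358 and an adjusted p of 0.429 in edgeR's test. Without shCtrl 3 it was 1.08 (SE 0.12), with an edgeR adjusted p of 0.00048. EIF2S3, which encodes the GTP- and tRNA-binding gamma subunit and lies on chromosome X (24054716 to 24077971, plus strand), was at 145, 143 and 179 CPM across shCtrl 1 to 3, against 225, 205 and 183 CPM across shDNAJC2 1 to 3. The groups again did not overlap, with a log2 fold change of 0.39 (SE 0.14). EIF2S1 encodes the alpha subunit, whose phosphorylation holds back initiation. It was at 123, 125 and 167 CPM across shCtrl 1 to 3, against 216, 190 and 143 CPM across shDNAJC2 1 to 3, so that shCtrl 3 was above shDNAJC2 3. Its log2 fold change was 0.40 (SE 0.19) over all 6 libraries.

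Without shCtrl 3, EIF2S3 rose by a log2 fold change of 0.51 and EIF2S1 by 0.56, with edgeR adjusted p-values of 0.0101 and 0.0261. EIF2A, an alternative initiator tRNA carrier that is not a subunit of eIF2, was at 67.5, 69.7 and 78.4 CPM across shCtrl 1 to 3, against 96.3, 90.8 and 76.8 CPM across shDNAJC2 1 to 3, and shDNAJC2 3 lay inside the range of the controls. Its log2 fold change was 0.29 (SE 0.12), and 0.36 without shCtrl 3 (edgeR adjusted p 0.0403). EIF2D, which can place tRNA on the ribosome without GTP, was the member of this set with a negative log2 fold change (−0.08, SE 0.09; −0.10 without shCtrl 3). Its values were 52.1, 53.9 and 50.8 CPM across shCtrl 1 to 3, against 47.6, 49.8 and 50.8 CPM across shDNAJC2 1 to 3, just below the controls with TMM factors but not with upper-quartile factors, total counts or levels per length.

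eIF2B, the 5-subunit exchange factor that reloads eIF2 with GTP, had a median log2 fold change of −0.12 over its genes (−0.14 without shCtrl 3), with 4 of 5 negative in each fit. EIF2B4, the delta subunit of the regulatory core, was at 53.6, 52.2 and 49.2 CPM across shCtrl 1 to 3, against 42.5, 45.8 and 47.2 CPM across shDNAJC2 1 to 3. EIF2B5, the catalytic epsilon subunit, was at 63.3, 65.2 and 61.0 CPM across shCtrl 1 to 3, against 55.0, 59.7 and 59.8 CPM across shDNAJC2 1 to 3. In both genes the knockdown libraries were all below the controls with TMM factors, but the groups overlapped with upper-quartile factors, with total counts and in TPM. Their log2 fold changes were −0.19 and −0.12, with edgeR adjusted p-values of 0.436 and 0.538, and −0.22 and −0.14 without shCtrl 3. EIF2B1, the alpha subunit, was at 62.9, 62.1 and 44.8 CPM across shCtrl 1 to 3, against 47.0, 48.0 and 52.0 CPM across shDNAJC2 1 to 3. shCtrl 3 was the lowest of all, the log2 fold change over all 6 libraries was −0.21 (SE 0.15), and without shCtrl 3 EIF2B1 fell by 0.35 on the log2 scale (edgeR adjusted p 0.0254). EIF2B2 and EIF2B3 had log2 fold changes of −0.03 and 0.20, with overlapping groups, and neither passed without shCtrl 3.

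Set side by side per transcript length, the mean level of the EIF2S1, EIF2S2 and EIF2S3 subunits was 123, 117 and 161 TPM across shCtrl 1 to 3, against 210, 182 and 179 TPM across shDNAJC2 1 to 3. The mean level of the eIF2B subunits was 56.7, 56.6 and 44.7 TPM in the controls and 46.4, 47.6 and 49.5 TPM in the knockdown libraries. The ratio of these means was 2.18, 2.07 and 3.61 in the controls and 4.52, 3.83 and 3.62 in the knockdown libraries. The highest control and the lowest knockdown library were thus almost equal. This ratio was chosen after the values were seen and is given as a description.

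**Figure D3:**
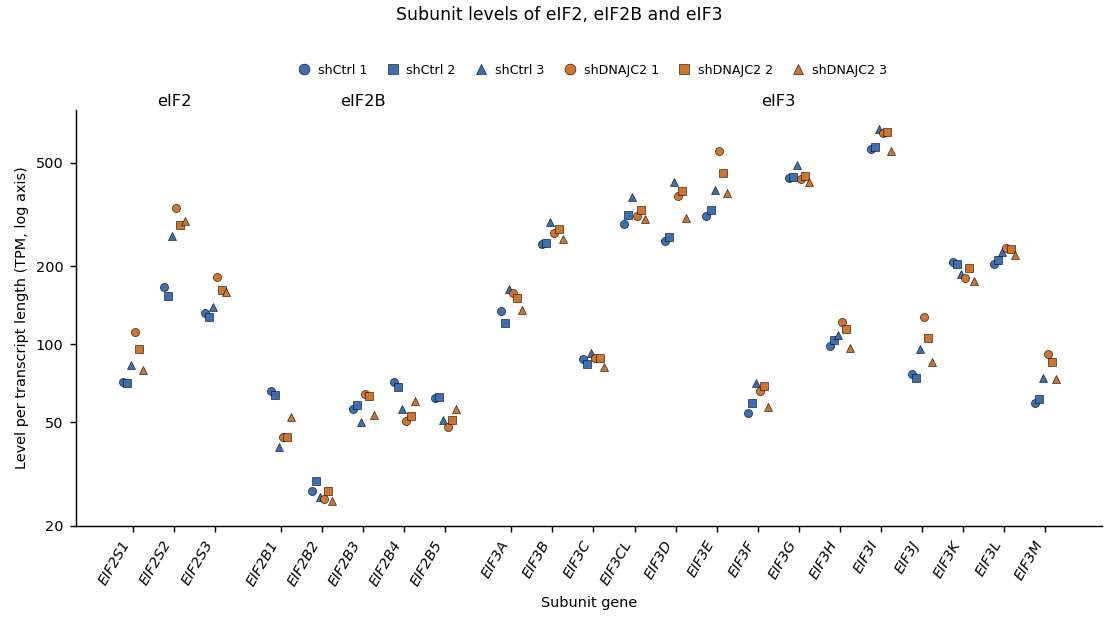
Levels per transcript length (TPM, log axis) of the subunit genes of eIF2, eIF2B and eIF3 in each library, with shCtrl in blue, shDNAJC2 in orange and the marker giving the replicate. EIF2S2 and EIF2S3 have all orange points above the blue ones, and control means of eIF3 subunits span from 61.5 TPM (EIF3F) to 605 TPM (EIF3I).

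In the start codon recognition set the median log2 fold change was 0.35 over all 6 libraries and 0.44 without shCtrl 3. It was 0.21 over all 6 with the GC trend removed, and 5 of 6 genes were positive each time. EIF1 encodes the factor that holds the scanning ribosome open and guards against poor start codons (chromosome 17, 41688885 to 41692668, plus strand). It was at 419, 429 and 1142 CPM across shCtrl 1 to 3, against 1205, 1188 and 770 CPM across shDNAJC2 1 to 3. shCtrl 3 was within the range of the knockdown libraries, and shDNAJC2 3 was between the sets. The log2 fold change of EIF1 was 0.67 (SE 0.43, 95% interval −0.34 to 1.68) over all 6 libraries and 1.32 (SE 0.20, edgeR adjusted p 0.00175) without shCtrl 3. Its close paralog EIF1B was at 34.3, 34.3 and 66.9 CPM across shCtrl 1 to 3, against 75.3, 70.0 and 53.8 CPM across shDNAJC2 1 to 3, much the same order of libraries at a far lower level (log2 fold change 0.56, SE 0.29; 0.96 without shCtrl 3, edgeR adjusted p 0.00211).

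EIF5 encodes the GTPase activator of eIF2 that favours start codon selection. It was at 255, 262 and 295 CPM across shCtrl 1 to 3, against 377, 340 and 295 CPM across shDNAJC2 1 to 3, with shCtrl 3 and shDNAJC2 3 equal to 3 digits. EIF1AX, the X-linked gene for the factor that binds the A site of the scanning ribosome, was at 104, 98.1 and 122 CPM across shCtrl 1 to 3, against 166, 137 and 122 CPM across shDNAJC2 1 to 3. For EIF1AX and EIF5 the groups did not overlap with TMM factors, by the narrowest of margins, and overlapped with DESeq2's size factors. Their log2 fold changes were 0.39 (SE 0.15) and 0.32 (SE 0.13). Without shCtrl 3 EIF1AX rose by 0.49 and EIF5 by 0.39 (edgeR adjusted p 0.023 and 0.0398). EIF1AD, an EIF1A-like gene, had a log2 fold change of 0.19 over all 6 libraries and rose by 0.37 in that fit (edgeR adjusted p 0.0232). The log2 ratio of EIF5 to EIF1, which act in opposite senses on start codon choice, was −0.71, −0.71 and −1.95 in the controls and −1.67, −1.81 and −1.39 in the knockdown libraries. The exact two-sided permutation test gave p = 0.4 for this ratio.

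**Figure D4:**
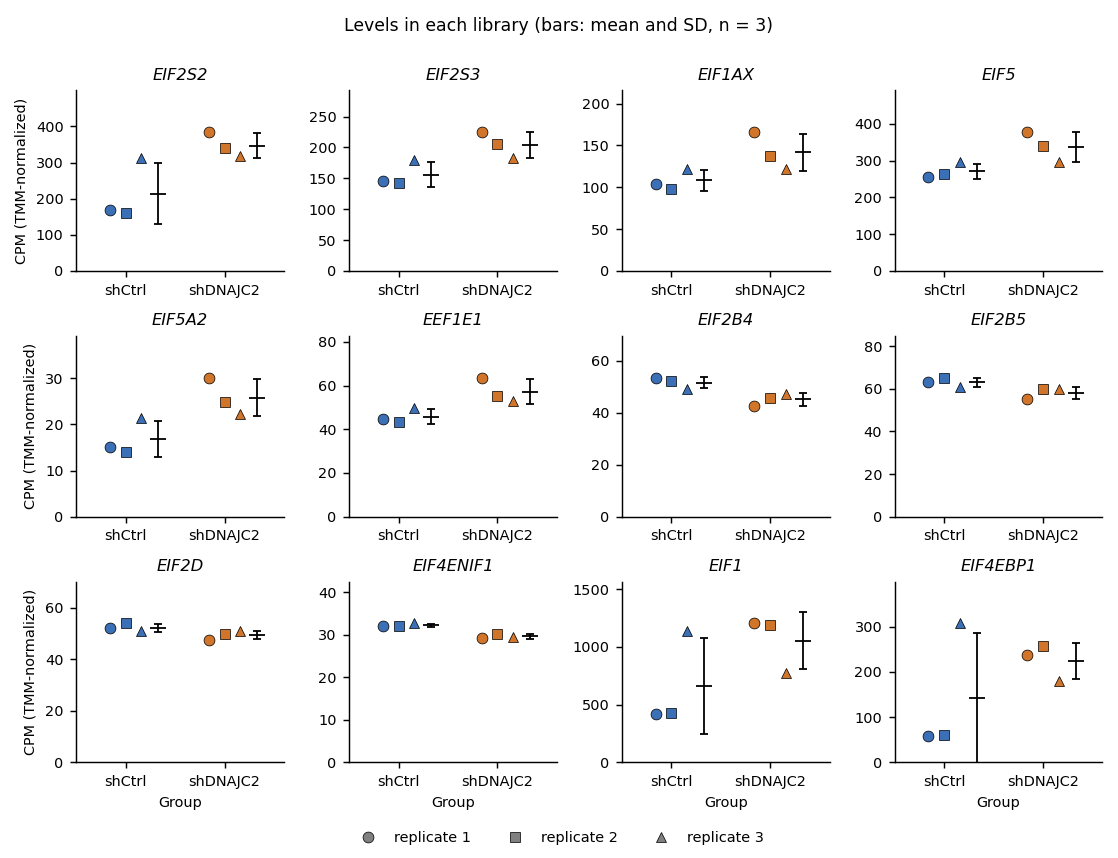
CPM of 12 factors in each library (points, with shapes for replicates; bars give the mean and SD of 3 libraries) for shCtrl and shDNAJC2, from 0 on each axis. The first 10 panels show the genes whose groups did not overlap with TMM factors; in EIF1 and EIF4EBP1 the triangle of shCtrl 3 lies among or above the knockdown libraries and the other 2 controls lie far below.

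eIF3, the many-subunit scaffold on which the small subunit is assembled, had 14 genes here, since EIF3C and EIF3CL are near-identical copies. Their median log2 fold change was 0.12 (0.28 without shCtrl 3), with 12 of 14 positive over all 6 libraries and none with an unadjusted p under 0.05. EIF3A, the largest subunit and the backbone of the complex, was at 343, 313 and 486 CPM across shCtrl 1 to 3, against 453, 443 and 361 CPM across shDNAJC2 1 to 3. shCtrl 3 was the highest of the 6 for EIF3A, and its log2 fold change was 0.14 (SE 0.20), or 0.35 without shCtrl 3 (edgeR adjusted p 0.0601). Reads of EIF3C and EIF3CL cannot be told apart with confidence, and their sum was 451, 484 and 643 CPM across shCtrl 1 to 3, against 536, 570 and 480 CPM across shDNAJC2 1 to 3. In most eIF3 genes shCtrl 3 lay with shDNAJC2 1 and 2, and in 13 of 14 it was nearer to the knockdown mean than to shCtrl 1 and 2.

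Once shCtrl 3 was left out, 4 of the 14 eIF3 genes rose. EIF3D, a cap-binding subunit, rose by a log2 fold change of 0.63, EIF3E by 0.68, EIF3J, a loosely bound subunit, by 0.64 and EIF3M by 0.61, each with an edgeR adjusted p under 0.05. Over all 6 libraries their log2 fold changes were 0.24, 0.48, 0.42 and 0.41, and none passed. EIF3D was at 207, 218 and 408 CPM across shCtrl 1 to 3, against 348, 370 and 265 CPM across shDNAJC2 1 to 3. EIF3E was at 184, 199 and 273 CPM across shCtrl 1 to 3, against 370, 312 and 236 CPM across shDNAJC2 1 to 3. EIF3K and EIF3G had log2 fold changes of −0.02 and 0.11 in that fit and did not pass. EIF3K was at 106, 106 and 111 CPM across shCtrl 1 to 3, against 104, 116 and 93.2 CPM across shDNAJC2 1 to 3. Whether the 4 subunits that rose differed from the other 10 in response was not tested. Per transcript length the control means ran from 61.5 ± 8.71 TPM (EIF3F, SD, n = 3) to 605 ± 61.5 TPM (EIF3I), a wider spread than the difference between groups in any of these genes.

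In the cap-binding set, eIF4F with its cofactors and paralogs, the median log2 fold change was 0.07 over 11 tested genes, with 7 positive, and 0.08 without shCtrl 3. EIF4E, the cap-binding protein, was at 64.0, 67.3 and 64.5 CPM across shCtrl 1 to 3, against 82.1, 75.9 and 62.1 CPM across shDNAJC2 1 to 3, and shDNAJC2 3 was the lowest of all. Its log2 fold change was 0.17 (SE 0.13), and 0.16 without shCtrl 3. EIF4A1, the main RNA helicase of the complex, was at 1259, 1296 and 1786 CPM across shCtrl 1 to 3, against 1679, 1734 and 1357 CPM across shDNAJC2 1 to 3, with a log2 fold change of 0.14 (SE 0.19), or 0.32 without shCtrl 3 (edgeR adjusted p 0.108). Part of its exonic sequence is shared with the read-through gene SENP3-EIF4A1, and the value is uncertain to that extent. Its paralog EIF4A2 was at 226, 218 and 237 CPM across shCtrl 1 to 3, against 269, 247 and 237 CPM across shDNAJC2 1 to 3 (log2 fold change 0.15, SE 0.10; 0.18 without shCtrl 3). EIF4G1, the scaffold that bridges the cap and eIF3, was at 655, 671 and 809 CPM across shCtrl 1 to 3, against 624, 688 and 647 CPM across shDNAJC2 1 to 3 (log2 fold change −0.12, SE 0.14; −0.02 without shCtrl 3). That direction turned to 0.0091 with the GC trend of each library removed. EIF4B, which stimulates the helicase, was the only gene of this set to rise without shCtrl 3, by 0.63 (edgeR adjusted p 0.0162; 0.37, SE 0.23, over all 6 libraries). It was at 306, 322 and 497 CPM across shCtrl 1 to 3, against 557, 509 and 386 CPM across shDNAJC2 1 to 3.

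Among the inhibitors that compete for eIF4E was the factor for which shCtrl 3 lay farthest on the log2 scale from shCtrl 1 and 2, by 2.39. That gene, EIF4EBP1, encodes 4E-BP1, which blocks eIF4E until mTOR phosphorylates it, and its gene is a known target of ATF4. It was at 57.0, 60.2 and 307 CPM across shCtrl 1 to 3, against 237, 256 and 180 CPM across shDNAJC2 1 to 3. shCtrl 3 was the highest of all 6 and the other controls the lowest. The log2 fold change was 0.67 (SE 0.65, 95% interval −0.88 to 2.22; adjusted p 0.614 in edgeR), and without shCtrl 3 it was 1.94 (SE 0.16, edgeR adjusted p 0.000138). On the log2 scale the ratio of EIF4EBP1 to EIF4E counts was −0.17, −0.16 and 2.25 in the controls and 1.53, 1.76 and 1.54 in the knockdown libraries (exact two-sided permutation p = 0.4). The paralog EIF4EBP2 was at 90.9, 93.1 and 78.0 CPM across shCtrl 1 to 3, against 91.1, 87.4 and 90.0 CPM across shDNAJC2 1 to 3. For EIF4EBP2 the log2 fold change, 0.03 (95% interval −0.21 to 0.28), turned to −0.04 without shCtrl 3. EIF4EBP3 was under 6 CPM in every library and shares most of its exonic bases with the read-through gene ANKHD1-EIF4EBP3. EIF4ENIF1, the transporter that takes eIF4E to the nucleus and to processing bodies, was at 32.0, 32.1 and 32.7 CPM across shCtrl 1 to 3, against 29.1, 30.1 and 29.6 CPM across shDNAJC2 1 to 3. This small difference (log2 fold change −0.12, SE 0.09; −0.11 without shCtrl 3) did not separate the groups by total counts or in TPM.

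At subunit joining, EIF6, which keeps the large subunit from binding early, was at 116, 117 and 202 CPM across shCtrl 1 to 3, against 186, 201 and 150 CPM across shDNAJC2 1 to 3. Its log2 fold change was 0.30 (SE 0.24), and without shCtrl 3 it rose by 0.62 (edgeR adjusted p 0.00842). EIF5B, the GTPase that joins the subunits, was at 114, 103 and 108 CPM across shCtrl 1 to 3, against 129, 111 and 113 CPM across shDNAJC2 1 to 3, and did not pass in either fit (log2 fold change 0.12 in each).

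EIF5A, the common form of the stall-relieving factor, was at 804, 817 and 1151 CPM across shCtrl 1 to 3, against 1050, 1123 and 873 CPM across shDNAJC2 1 to 3, with shCtrl 3 the highest of all. Its log2 fold change was 0.14 (SE 0.19), and 0.33 without shCtrl 3 (edgeR adjusted p 0.0883). EIF5A2, its paralog, which is amplified in some tumours and lies on chromosome 3 (170888415 to 170908693, minus strand), was at 15.2, 14 and 21.3 CPM across shCtrl 1 to 3, against 30.2, 24.9 and 22.2 CPM across shDNAJC2 1 to 3. Here the groups did not overlap, and the log2 fold change was 0.62 (SE 0.20; unadjusted p 0.0198, adjusted p 0.429 in edgeR). Without shCtrl 3 it was 0.83 (edgeR adjusted p 0.00485). The log2 ratio of EIF5A2 to EIF5A, which does not depend on size factors, was −5.73, −5.87 and −5.75 in the controls and −5.12, −5.49 and −5.30 in the knockdown libraries. All knockdown ratios were above all control ratios, shCtrl 3 included, by 0.48 on average. The exact two-sided permutation p was 0.1, the smallest that 3 libraries against 3 allow, and 0.4 after Benjamini-Hochberg adjustment over the 8 ratios computed. The transcripts of the pair differ in GC content, at 34.3% for EIF5A2 and 57.3% for EIF5A. With the GC trend of each library removed, the log2 fold change of EIF5A2 was 0.41, and the ratio was not computed with that correction. EIF5AL1, a near copy of EIF5A, was under 6 CPM throughout and may hold reads of EIF5A.

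Of the eEF1 genes, EEF1A1 was by far the most abundant factor, at 4377 ± 713 TPM (SD, n = 3) in the controls. It was at 6548, 7153 and 10336 CPM across shCtrl 1 to 3, against 10777, 10559 and 7910 CPM across shDNAJC2 1 to 3. Its many processed pseudogenes can take or lend reads. The log2 fold change was 0.28 (SE 0.24), and 0.51 without shCtrl 3, where the edgeR adjusted p was 0.0559. EEF1A2, the form of muscle and neurons, was at a low level of 1.64, 1.98 and 2.22 CPM across shCtrl 1 to 3, against 1.3, 1.85 and 1.59 CPM across shDNAJC2 1 to 3. The log2 ratio of EEF1A2 to EEF1A1 was −11.96, −11.82 and −12.19 in the controls and −13.01, −12.48 and −12.28 in the knockdown libraries. The knockdown ratios were all lower (exact two-sided permutation p = 0.1, 0.4 adjusted over the 8 ratios), a value that rests on about 2 CPM of EEF1A2. EEF1A2 alone had a log2 fold change of −0.30 (SE 0.25), −0.20 without shCtrl 3 and −0.03 with the GC trend removed. The exchange factor genes EEF1B2, EEF1D and EEF1G, which reload eEF1A with GTP, had log2 fold changes of 0.29, −0.08 and 0.16. Without shCtrl 3 EEF1B2 rose by 0.51 (edgeR adjusted p 0.0267), while EEF1D, at 0.07, turned direction and EEF1G was at 0.40, neither passing (edgeR adjusted p 0.635 and 0.0661). Nearly all exonic bases of EEF1G also belong to the overlapping gene AP002990.1.

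EEF1E1 encodes AIMP3, a scaffold of the multi-tRNA synthetase complex that carries an elongation factor name. It was at 44.6, 43.3 and 49.6 CPM across shCtrl 1 to 3, against 63.6, 55.1 and 53.1 CPM across shDNAJC2 1 to 3. The groups did not overlap, with a log2 fold change of 0.32 (SE 0.12, unadjusted p 0.0277 and adjusted p 0.429 in edgeR) and of 0.39 without shCtrl 3 (edgeR adjusted p 0.0289). The read-through gene EEF1E1-BLOC1S5, which shares exons with EEF1E1, had values of 36.8, 33.8 and 41.9 CPM across shCtrl 1 to 3, against 48.9, 45.1 and 41.9 CPM across shDNAJC2 1 to 3, and is not an independent measurement.

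EEF2, the translocase, was at 1815, 1955 and 3985 CPM across shCtrl 1 to 3, against 2718, 3152 and 2052 CPM across shDNAJC2 1 to 3. shCtrl 3 exceeded every other library, and the log2 fold change was 0.03 (SE 0.34, 95% interval −0.78 to 0.84). With 1 library left out it ranged from −0.16 (without shCtrl 1) to 0.49 (without shCtrl 3). EEF2K, the kinase that inactivates eEF2, had its high and low libraries the other way round, at 39.995, 37.7 and 30.7 CPM across shCtrl 1 to 3, against 29.1, 27.9 and 34.3 CPM across shDNAJC2 1 to 3 (log2 fold change −0.25, SE 0.14; −0.34 without shCtrl 3, edgeR adjusted p 0.0535). The log2 ratio of EEF2K to EEF2 was −5.50, −5.70 and −7.02 in the controls and −6.54, −6.82 and −5.90 in the knockdown libraries (exact two-sided permutation p = 0.6). EEFSEC, which delivers selenocysteine, was at 18.0, 19.2 and 26.9 CPM across shCtrl 1 to 3, against 19.7, 23.6 and 19.4 CPM across shDNAJC2 1 to 3 (log2 fold change −0.03, SE 0.19; 0.17 without shCtrl 3, where the direction turned).

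The methyltransferases that modify eEF1A and eEF2 were all of low level. EEF2KMT, which methylates eEF2, was at 28.3, 27.3 and 41.5 CPM across shCtrl 1 to 3, against 36.1, 43.2 and 36.0 CPM across shDNAJC2 1 to 3, with a log2 fold change of 0.25 (SE 0.19). It rose by 0.47 without shCtrl 3 (edgeR adjusted p 0.0186). EEF1AKMT4, at 3.85 to 7.65 CPM over the libraries, had a log2 fold change of 0.41 (SE 0.29) and rose by 0.80 in the fit without shCtrl 3 (edgeR adjusted p 0.0104). It shares 26.33% of its exonic bases with the read-through gene EEF1AKMT4-ECE2. EEF1AKMT1, EEF1AKMT2 and EEF1AKMT3 had log2 fold changes of 0.01, 0.06 and −0.0035 over all 6 libraries and did not pass in either fit. Without shCtrl 3 those of EEF1AKMT1 and EEF1AKMT2 were −0.09 and −0.12.

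The 4 factors whose groups stayed apart with TMM factors, DESeq2's size factors, upper-quartile factors, total counts and TPM alike were EIF2S2, EIF2S3, EIF5A2 and EEF1E1. On single scales 7.33% to 8.89% of all genes were higher without overlap. The share of all genes that stayed apart on every scale was not computed, so these 4 cannot be set against a background. The transcripts of the 6 factors that were higher without overlap had a median GC content of 39.2%, against 52.3% for the 4 lower ones, 48.5% for the factors as a whole and 48.9% for all genes. With the GC trend of each library removed, the log2 fold change of EIF2S2 was 0.63, of EIF5A2 0.41, of EIF2S3 0.30, of EIF5 0.22, of EIF1AX 0.20 and of EEF1E1 0.16. None of the 6 then had an unadjusted p under 0.05, a level that EIF5 (p 0.0501) had just missed without the correction too. The median of the carriers of initiator tRNA was then 0.27 and that of the eIF5A genes 0.28, beside 0.39 and 0.14 without the correction.

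The sequence at the transcription start is shown because a pyrimidine run there is the hallmark of mRNAs, called TOP mRNAs, whose translation answers to mTOR. RefSeq promoter windows (GRCh38.p14) were found for 54 of the factors. Each window is a short stretch around a single annotated start of the gene, most of it before that start. Other starts of the same gene and sites farther away were not searched. A pyrimidine start, taken as C at the first transcribed base followed by at least 4 of C or T, was present in 12 of the 54 (22.22%), against 4.07% of the 35116 promoters in the table. Those promoters outnumber the 20532 genes counted and were not limited to genes expressed here, so they are not a matched set. Of 9 factors listed as TOP mRNAs, 6 had a window, and 4 of those have such a start while EEF1B2 and EEF1G do not. EIF2S3, EIF2A, EIF3D, EIF3M, EIF3K, EIF2D and EIF4A2 have it without being on that list, as does EIF2S3B, the untested retrocopy of EIF2S3. Each line gives 30 bases of the coding strand, 5′ to 3′, with 15 on each side of the start, and capitals mark the pyrimidine run from the first transcribed base. The first 2 are elongation factors, the next 5 are initiation factors that rose without shCtrl 3, and the last 2 are initiation factors with small fold changes.
EEF1A1 (chr6:73521018-73521047, minus strand): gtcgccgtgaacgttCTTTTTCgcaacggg
EEF2 (chr19:3985449-3985478, minus strand): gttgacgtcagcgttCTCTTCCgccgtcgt
EIF2S3 (chrX:24054941-24054970, plus strand): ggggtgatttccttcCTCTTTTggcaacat
EIF2A (chr3:150546772-150546801, plus strand): tcacccgagcggtttCTCTTTCCgggacaa
EIF3D (chr22:36529152-36529181, minus strand): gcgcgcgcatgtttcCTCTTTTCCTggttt
EIF3M (chr11:32583816-32583845, plus strand): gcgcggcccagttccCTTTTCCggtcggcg
EIF4B (chr12:53006441-53006470, plus strand): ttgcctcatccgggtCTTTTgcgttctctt
EIF3K (chr19:38619173-38619202, plus strand): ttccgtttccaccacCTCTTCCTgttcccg
EIF2D (chr1:206612451-206612480, minus strand): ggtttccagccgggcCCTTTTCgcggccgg
Of the 12 factors with a pyrimidine start, 11 were tested, with a median log2 fold change of 0.24 and 9 positive. The 41 tested factors with another start had a median of 0.12, with 29 positive. Without shCtrl 3 the medians were 0.49 and 0.24, and 5 of 11 and 14 of 41 rose, beside 17.8% of all genes tested. EIF3K and EIF2D, with runs of 8 and 7 pyrimidines, were among those that did not pass.

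A palindromic E-box, CACGTG, read the same on both strands and bound by MYC and related factors, was in 15 of the 54 promoters (27.78%). It was in 7.26% of all promoters in the same table, which are not a matched set. EEF1AKMT4 and EEF1AKMT4-ECE2 share a window, and over distinct windows it was in 14 of 53 (26.42%), against 7.23%. The amino acid response motif TGATGNAA, searched on both strands and of the kind ATF4 binds, was in none of the 54, against 3.62% of all promoters, which says only that these letters are not in these windows. EIF4EBP1 and EIF2S2 are not among the 54. EIF5A2 is shown for its 2 E-boxes in capitals (chr3:170908783-170908832, minus strand, 195 to 146 bases before the start) and EIF1B for its single one (chr3:40309638-40309672, plus strand, 69 to 35 bases before the start), both on GRCh38.p14.
EIF5A2: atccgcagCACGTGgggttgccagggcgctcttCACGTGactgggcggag
EIF1B: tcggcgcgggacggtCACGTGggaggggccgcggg
Of the 15 factors that hold the motif, 5 rose without shCtrl 3 (EIF5A2, EIF1B, EIF4B, EEF1AKMT4 and EEF1AKMT4-ECE2) and none fell, against 14 and 1 of the 37 tested factors without it. Of all genes tested in that fit, 17.8% rose and 17% fell. The median log2 fold changes of factors with and without the motif were 0.15 and 0.14 over all 6 libraries. Without shCtrl 3 they were 0.24 and 0.32. EIF4E, EIF4G1 and EIF4H, which hold the motif as well, had log2 fold changes of 0.16, −0.02 and 0.08 without shCtrl 3 and did not pass.

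Other genes of the pathway, taken from a list of ribosome recycling and release factors, poly(A)-binding proteins, kinases of the pathway and mitochondrial factors, numbered 32, of which 31 were tested. None passed over all 6 libraries in edgeR's test, 3 had an unadjusted p under 0.05 (9.68%, beside 11.3% of all genes), and the median log2 fold change of the list was 0.05. Without shCtrl 3, 10 rose (32.3%, beside 17.8% of all genes) and 2 fell (6.45%, beside 17%). Those that fell were RPS6KB2 (log2 fold change −0.58, edgeR adjusted p 0.014) and MCTS1 (−0.36, edgeR adjusted p 0.0269). Over all 6 libraries their log2 fold changes were −0.46 and −0.17. RPTOR and MKNK2 were the 2 genes of the list whose groups did not overlap, both lower (6.45%, beside 8.42% of all genes). PPP1R15A, which encodes GADD34, the phosphatase subunit that reverses eIF2 phosphorylation, was at 87.2, 94.4 and 948 CPM across shCtrl 1 to 3, against 644, 753 and 194 CPM across shDNAJC2 1 to 3 (log2 fold change 0.49, SE 0.99; 2.55 without shCtrl 3, edgeR adjusted p 0.0052). PDCD4, an inhibitor of the eIF4A helicase, was at 37.9, 37.8 and 63.3 CPM across shCtrl 1 to 3, against 85.9, 74.0 and 62.3 CPM across shDNAJC2 1 to 3. Its log2 fold change was 0.68, and 0.97 without shCtrl 3 (edgeR adjusted p 0.00157). PABPC1, the poly(A)-binding protein that closes the mRNA loop through eIF4G, was at 495, 501 and 808 CPM across shCtrl 1 to 3, against 820, 772 and 613 CPM across shDNAJC2 1 to 3 (log2 fold change 0.29, SE 0.23; 0.57 without shCtrl 3, edgeR adjusted p 0.0166). The order of libraries in PPP1R15A and PABPC1, with shCtrl 3 beside or above shDNAJC2 1 and 2 and shDNAJC2 3 lower, was that of EIF1 and EIF4EBP1.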

How the data were processed

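The authors deposited raw counts of reads per gene for 6 libraries, with no normalization, as read from the values (whole numbers with unequal totals). Per the submitters' processing notes, reads were placed on GRCh38 (also written hg38). Strand setting, aligner, counter and annotation are not given in the sources used here, so reads of overlapping, antisense or near-identical genes cannot be told apart. All 68 members were matched by identifier to GENCODE 29, which gave coordinates, and transcript length and GC content (longest transcript, which need not be the one expressed; TPM was computed from it).

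The test was that of edgeR 4.0.16 under R 4.3.3 (quasi-likelihood F test, two-sided, TMM, filterByExpr, group as the only term, Benjamini-Hochberg over all genes, threshold 0.05), on all 6 libraries and without shCtrl 3. DESeq2 1.42.0, limma 3.58.1, other size factors and filters, a replicate block and single libraries left out were alternatives. A GC correction (loess on GC content, span 0.3), further settings for the fit without shCtrl 3 and the overlap of groups on other scales were added after seeing the data. P-values measure the spread between these libraries. At the depths given, 3 counts, the limit that a count of 0 allows, are 0.115 to 0.179 CPM, covering counting error only. Scripts were tested on simulated data.

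The members and lists were chosen with earlier results of these data known. Genes named by rule were 15 fixed names, members whose groups did not overlap, those with an unadjusted p under 0.05 (up to 3 per complex) and the 3 largest rises and falls; other members named were chosen after their values were seen. Sequences are from RefSeq promoters. The Y-linked member is counted but its level is not reported here.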

Additional observations from a re-analysis of the deposited data

How the results depend on the processing

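Over all 6 libraries the count of factors called was 0 higher and 0 lower under every size factor, filter and tool tried and with each library left out in turn, except without shCtrl 3, where it was 23 higher and 1 lower. That fit depended on single libraries as well: the count of factors that rose ranged from 8 to 42 (12 without shDNAJC2 1, 8 without shDNAJC2 2, 42 without shDNAJC2 3) and was 6 at an adjusted p under 0.01. The count that fell ranged from 0 to 3 when a knockdown library was left out, was 2 with the GC trend removed, 2 with upper-quartile factors and 0 at an adjusted p under 0.01. The shares of all genes called under these settings are not given here. Of the 24 calls without shCtrl 3, 24 were shared with DESeq2 (32 called), 24 with DESeq2's size factors, 21 with upper-quartile factors and 23 with the GC trend removed. DNAJC2 passed in DESeq2 (−0.73, adjusted p 0.0364) and, in edgeR, without shCtrl 3 (−0.65, adjusted p 0.00799); with 1 library left out the fold change ranged from −0.81 to −0.60, and over the alternatives the adjusted p ranged from 0.00799 to 0.886. EEF2 changed sign without shCtrl 1 (−0.16), shCtrl 2 (−0.12) or shDNAJC2 2 (−0.11), within a range of −0.16 to 0.49 over the libraries left out, and EIF4G1 with the GC trend removed (0.0091). The cause was not tested. Same-numbered libraries deviated in opposite directions (r of −0.38, −0.52 and −0.66 across genes). Each deviation was taken from the mean of its own group, so the library that stood apart in each group shapes these signs. Whether libraries with the same number share a batch cannot be told from them. With the replicate block edgeR called 0 factors higher and 0 lower, and DNAJC2 had a log2 fold change of −0.74 (adjusted p 0.71). Errors did not follow depth alone: EIF4E3, near 1 CPM, had an SE of 0.36, but the abundant EIF4EBP1 and EIF1 had the largest (0.65 and 0.43).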
